A study of Mus musculus with 6 samples.

Results

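Mitochondrial ribosomal proteins are encoded in the nucleus, made in the cytosol and imported into mitochondria, where they assemble with a pair of mitochondrially encoded rRNAs. The resulting mitoribosome translates the few mRNAs of the mitochondrial genome, all for subunits of the respiratory chain and the ATP synthase. Liver is rich in mitochondria, and its hepatocytes express these genes throughout. The genes were taken from the deposited table as all symbols that start with Mrpl or Mrps and a digit, without a hyphen. This gave 78 of 55573 genes, each with a single row, 51 for proteins of the large subunit, 26 for proteins of the small subunit, and Mrps36, whose product is known as part of a 2-oxoglutarate dehydrogenase complex. The symbols are historical: the products of Mrps18a and Mrps30 sit in the large subunit and were counted there.

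The libraries were made from polyA RNA of liver from generation 3 mice fed normal feed. All mice lacked mTR, which encodes telomerase RNA, and Wrn, which encodes a RecQ helicase. The 3 control libraries (DKO) carried these deletions alone (mTR-/-Wrn-/-), and the labels add deletion of p21, the cell cycle inhibitor encoded by Cdkn1a, for the 3 p21TKO libraries (p21-/-mTR-/-Wrn-/-). Their titles carry "2M", which is not explained, and neither sex nor separate animals per replicate are stated, so the p-values below rest on the scatter among libraries, which may be technical.

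Facts of the whole series bear on every value below. The FPKM denominators were 19363284 to 27061290 reads. Cdkn1a stood at 0.41 to 1.79 FPKM in DKO and at 1.41, 11.05 and 6.5 FPKM in the libraries labelled p21TKO replicates 1 to 3, so it was not lower there, replicate 1 lay within the DKO range, and directions rest on the labels. Over all tested genes, the log2(FPKM + 1) of p21TKO replicate 1 correlated at 0.9205 to 0.9782 with the DKO libraries, highest with DKO replicate 2, and at 0.8775 and 0.8601 with p21TKO replicates 2 and 3 (Pearson, across genes, which are not independent replicates). This library thus stood apart from its own group. The Y-linked genes Ddx3y, Eif2s3y, Kdm5d and Uty summed to 19.19 to 23.3 FPKM in 3 libraries (replicates 2 and 3 of DKO, replicate 1 of p21TKO) and to 0 in the others. All 6 hepatocyte markers were tested, and their summed level was 36707.6 to 47127.2 FPKM in DKO and 46965.4 to 52145.8 FPKM in p21TKO. Most of this sum was Alb, and of the 6 markers 3 had a higher mean in p21TKO and 3 a lower mean. The 8 neutrophil markers summed to 9.5 to 28.3 FPKM in DKO and 23.8 to 506.8 FPKM in p21TKO, where replicates 2 and 3 held 506.8 and 211.2. Of these 8, only Ly6g was at 0, in DKO replicates 2 and 3. The 8 Kupffer cell and macrophage markers summed to 27.9 to 68.3 FPKM in DKO and 18.6 to 171.5 FPKM in p21TKO, and the 7 endothelial markers to 10.1 to 16.5 and 7.1 to 59.8 FPKM, with none at 0. The 7 stellate cell markers summed to 13.7 to 23.2 FPKM in DKO and 25.2 to 37.5 FPKM in p21TKO. The largest part of this sum was Dcn, whose groups overlapped (7.28 to 17.22 FPKM in DKO and 13.6 to 31.1 FPKM in p21TKO). Of the 5 stellate markers that were tested, 3 had a higher mean in p21TKO and 2 a lower mean. The 5 biliary markers, of which 1 was tested, summed to 7.0 to 18.5 and 6.9 to 27.3 FPKM. The 6 lymphocyte markers summed to 1.8 to 3.0 and 0.6 to 1.2 FPKM, and 0 of them had a mean of at least 1 FPKM. The part of these cell types in the results below was not tested. In bulk RNA, fewer cells of a type and less RNA per cell cannot be told apart.

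Some promoters of the members held short motifs of factors known to act on nuclear genes for mitochondria. RefSeq (GRCm38.p6) gave promoter windows, 250 bases before to 50 after the start, for 69 of the 78 members, in 75 windows. The NRF1 motif, searched as GCGCA, any base and GCGC in a row, was in 17.3% of these windows, against 4.6% of all 32851 windows and 10.5% of the windows of genes tested here. The ETS motif CCGGAAGT, which GABPA binds, was in 16.0% of the members' windows, against 3.89% of all windows and 8.88% of those of tested genes. The YY1 motif AAGATGGC was in 16.0%, against 2.75% and 4.82%. Both strands were searched and overlaps between motifs were not removed. At least 1 of the 3 motifs was in 34 of the 75 windows (45.3%), against 22.3% of the windows of tested genes, and the median number of CG dinucleotides per window was 21 in both. The 150 bases before the RefSeq start are shown for 6 members described below that hold an NRF1 or ETS match there, with the matches in capitals. They lie at chr11:120484487-120484636 (plus strand, Mrpl12), chr3:95871515-95871664 (minus strand, Mrps21), chr3:94443186-94443335 (plus strand, Mrpl9), chr13:99344636-99344785 (plus strand, Mrps27), chr9:98601680-98601829 (minus strand, Mrps22) and chr9:105053118-105053267 (plus strand, Mrpl3).
Mrpl12: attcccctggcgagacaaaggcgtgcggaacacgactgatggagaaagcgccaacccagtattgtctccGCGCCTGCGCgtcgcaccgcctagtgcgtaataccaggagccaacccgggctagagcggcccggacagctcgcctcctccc
Mrps21: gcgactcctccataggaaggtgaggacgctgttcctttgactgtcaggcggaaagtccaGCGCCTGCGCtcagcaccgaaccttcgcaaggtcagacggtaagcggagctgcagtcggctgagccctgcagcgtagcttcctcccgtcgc
Mrpl9: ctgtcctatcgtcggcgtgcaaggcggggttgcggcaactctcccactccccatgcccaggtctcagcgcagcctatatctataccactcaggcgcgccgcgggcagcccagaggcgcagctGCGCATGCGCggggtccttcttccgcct
Mrps27: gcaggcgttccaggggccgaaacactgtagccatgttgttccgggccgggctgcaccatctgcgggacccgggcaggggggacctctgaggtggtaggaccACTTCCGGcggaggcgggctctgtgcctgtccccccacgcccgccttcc
Mrps22: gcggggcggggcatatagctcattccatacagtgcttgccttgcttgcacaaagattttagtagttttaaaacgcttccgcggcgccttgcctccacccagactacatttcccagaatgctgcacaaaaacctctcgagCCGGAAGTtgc
Mrpl3: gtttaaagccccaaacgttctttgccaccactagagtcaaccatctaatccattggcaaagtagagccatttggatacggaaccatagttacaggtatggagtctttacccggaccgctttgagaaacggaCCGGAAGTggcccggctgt
The first 3 hold the NRF1 motif and the last 3 the ETS motif, on either strand. A match describes the letters and does not show that a factor binds.

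Levels of the members spanned a wide range although the mature complex holds nearly all its proteins in equal number. FPKM are per kilobase of exon, so levels can be set beside each other, with the limit that the exon length here is the union over all transcripts of a gene. Of the 78 members, 75 had a mean of at least 1 FPKM over the 6 libraries and were tested, with 93 to 2554 reads in each library. Their median was 10.9 FPKM, against 4.95 FPKM for all 9538 tested genes, and the highest mean was 43.6 times the lowest. This range went with the exon union. Over the quartiles of exon union, from shortest to longest, the members' median was 32.4, 11.4, 10.7 and 4.47 FPKM. All tested genes in the same classes had 6.77, 9.87, 6.52 and 3.44 FPKM. The part of exon length in the range of levels was not tested. Members of the large subunit had a median of 11.7 FPKM (50 tested) and those of the small subunit 8.05 FPKM (24 tested).

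**Figure D1:**
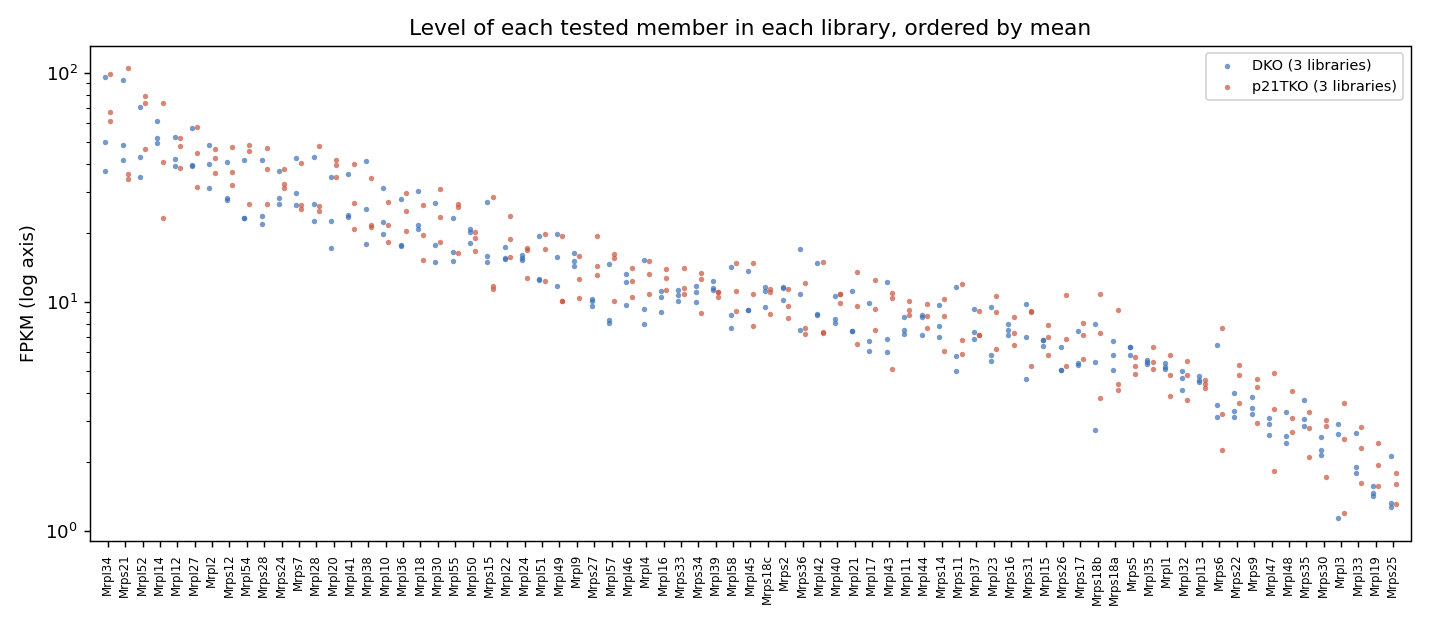
Level in FPKM (log axis) of each of the 75 tested members in each library, ordered by the mean over 6 libraries from left to right. Blue points are the 3 DKO and red points the 3 p21TKO libraries, which intermingle for most members, from Mrpl34 at the left to Mrps25 at the right.

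The 5 highest members were Mrpl34, Mrps21, Mrpl52, Mrpl14 and Mrpl12. Mrpl34, whose product is a small protein of the large subunit (ENSMUSG00000034880, chromosome 8, 71464959 to 71465747, GRCm38), stood at 37.23, 95.86 and 49.74 FPKM in DKO replicates 1 to 3 and at 98.69, 67.10 and 61.43 FPKM in p21TKO replicates 1 to 3. Mrps21, of the small subunit (ENSMUSG00000054312, chromosome 3, 95862634 to 95871519), stood at 41.39, 92.89 and 48.22 FPKM and at 104.34, 36.14 and 34.25 FPKM. In both genes DKO replicate 2 and p21TKO replicate 1 were the 2 highest libraries, about level with each other, and the groups overlapped. Mrpl52, a protein that bacterial ribosomes lack, stood at 35.09, 70.95 and 42.64 FPKM in DKO and 73.67, 46.63 and 78.80 FPKM in p21TKO. Mrpl14, which lies at the face of the large subunit towards the small one, stood at 49.16, 61.22 and 52.06 FPKM in DKO and 73.47, 40.63 and 23.21 FPKM in p21TKO. Its low value in p21TKO replicate 3 lay below all other libraries, and the groups overlapped. Mrpl12, a protein of the stalk that contacts translation factors, was the steadiest of the 5, at 39.15, 52.51 and 41.83 FPKM in DKO and 51.64, 38.45 and 47.93 FPKM in p21TKO. With SDs of 6.29 to 30.9 FPKM in DKO and 6.81 to 39.9 FPKM in p21TKO, neighbours in this order did not differ beyond their spread.

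The 5 lowest tested members were Mrps30, Mrpl3, Mrpl33, Mrpl19 and Mrps25. Mrps25, of the small subunit, stood at 1.32, 2.12 and 1.27 FPKM in DKO and 1.79, 1.60 and 1.31 FPKM in p21TKO, but 69.8% of its exon bases also belong to exons of other genes. Mrpl33 stood at 1.90, 2.67 and 1.79 FPKM and at 2.83, 1.62 and 2.30 FPKM, over an exon union of 7326 bases. Mrps30 stood at 2.24, 2.57 and 2.15 FPKM and at 3.05, 1.71 and 2.85 FPKM. The groups overlapped in all 3. The members that were not tested were Mrps23, at 0.23 to 0.80 FPKM, and Mrps10 and Mrpl53, which are listed at 0 in all 6 libraries. The products of both are known constituents of the mitoribosome. Of the exon bases of Mrpl53, 88.0% also belong to other genes, and of those of Mrps10, 0.0%.

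The members moved together from library to library, and this movement did not follow the genotype. Each gene's log2(FPKM + 1) was centred on its mean over the 6 libraries, and the median over the 75 tested members was -0.19, 0.21 and -0.10 in DKO replicates 1 to 3 and 0.25, -0.22 and 0.06 in p21TKO replicates 1 to 3. For all tested genes the same medians stayed between -0.03 and 0.02. p21TKO replicate 1 was above the gene's mean for 65 of 75 members and DKO replicate 2 for 58, while DKO replicate 1 was above it for 10 and p21TKO replicate 2 for 14. The summed level of all 78 members was 968.4, 1489.9 and 1073.4 FPKM in DKO and 1559.6, 1030.2 and 1238.1 FPKM in p21TKO. The highest and the second highest sum thus came from different genotypes, as did the lowest and the second lowest.

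**Figure D2:**
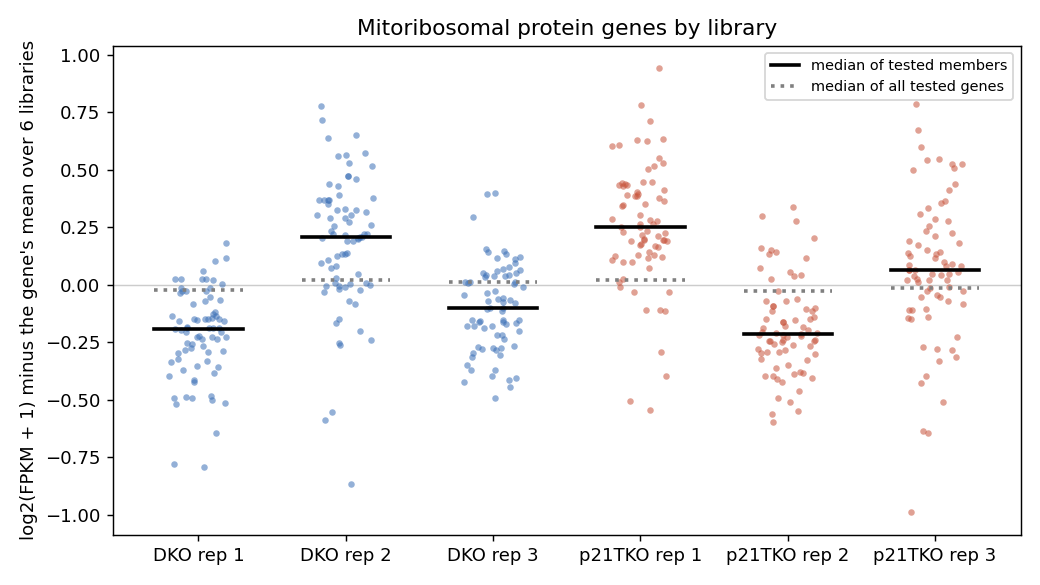
Each point is 1 of the 75 tested members in 1 library, as log2(FPKM + 1) minus the gene's mean over the 6 libraries, for DKO (blue) and p21TKO (red). Black lines mark the members' median and dotted grey lines that of all 9538 tested genes: the members sit high in DKO replicate 2 (0.21) and p21TKO replicate 1 (0.25) and low in DKO replicate 1 (-0.19) and p21TKO replicate 2 (-0.22).

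For 42 of the 75 members (56.0%), DKO replicate 2 and p21TKO replicate 1 were the 2 highest libraries, against 18.1% of all tested genes. This pattern was noticed in the values and is given with no test. Both rRNAs of the mitoribosome were also highest there. The small-subunit rRNA mt-Rnr1 stood at 589.59, 2104.77 and 536.25 FPKM in DKO and at 3012.88, 496.77 and 219.24 FPKM in p21TKO. The large-subunit rRNA mt-Rnr2 stood at 415.24, 1458.36 and 393.20 FPKM in DKO and at 1870.03, 295.31 and 140.13 FPKM in p21TKO. Because the libraries were made from polyA RNA, these values are no measure of total rRNA. Of all recovered reads, 7.22%, 12.98% and 7.32% came from mitochondrially encoded genes in DKO and 8.51%, 3.66% and 5.16% in p21TKO. The share was again largest in DKO replicate 2 and p21TKO replicate 1. The 4 tested erythroid markers, which are genes of red cell precursors, summed to 576.2 FPKM in DKO replicate 2 and 725.7 FPKM in p21TKO replicate 1, but also to 527.5 FPKM in p21TKO replicate 2, where the centred median of the members was lowest. The part of these genes in the pattern was not tested.

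Exon length, taken as the union over all transcripts, went with this pattern between the shortest and the longest members. When the tested members were divided by the quartiles of their exon length, the shortest class (up to 1493 bases, 19 members) had centred medians of 0.35 in DKO replicate 2 and 0.39 in p21TKO replicate 1, and the longest class (over 4233 bases, 19 members) had 0.096 and 0.17. The 2nd and 3rd classes of members lay between these, at 0.20 and 0.22 in DKO replicate 2 and at 0.23 and 0.32 in p21TKO replicate 1. The fall with length was thus not steady. All tested genes in the same classes of length had 0.14 and 0.17 in the shortest class and -0.009 and -0.024 in the longest. The members lay above other genes of like length in these libraries in all 4 classes. The part of exon length in the pattern was not tested.

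**Figure D3:**
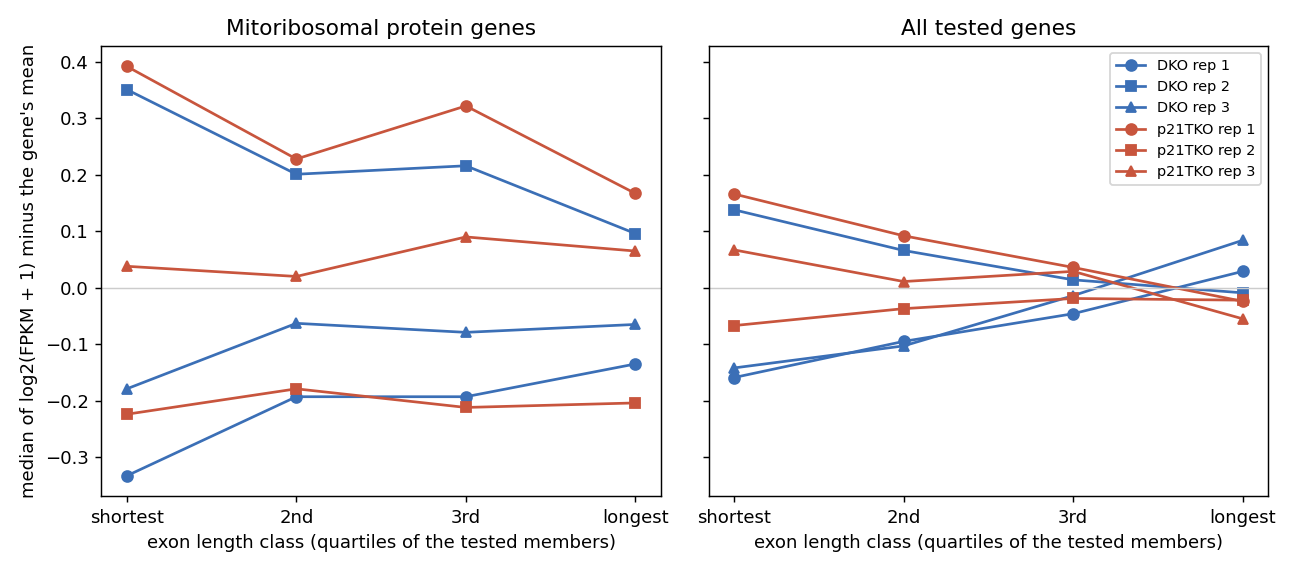
Median of log2(FPKM + 1) minus the gene's mean, for each library (lines) in 4 classes of exon length, for the tested members (left) and all tested genes (right), with DKO in blue and p21TKO in red. The spread between libraries was largest for the shortest members (0.39 in p21TKO replicate 1 to -0.33 in DKO replicate 1) and smaller in all tested genes of that class (0.17 to -0.16).

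A few members ran the other way. In 5 of the 75, DKO replicate 2 and p21TKO replicate 1 were the 2 lowest libraries, against 15% of all tested genes. These were Mrps34, Mrpl44, Mrps31, Mrps18b and Mrpl3, named after their values were seen. Mrps31, of the small subunit, stood at 7.03, 4.58 and 9.79 FPKM in DKO and 5.21, 9.07 and 8.99 FPKM in p21TKO. Mrpl3, whose product reaches towards the site of peptide bond formation, stood at 2.63, 1.13 and 2.93 FPKM in DKO and at 1.19, 2.52 and 3.62 FPKM in p21TKO. Mrpl13 varied least of all tested members, between 4.20 and 4.72 FPKM (1.12-fold), and Mrps18b most (3.94-fold), against a median range of 1.74-fold over the members and 2.02-fold over all tested genes. Mrps6, of the small subunit, came next after Mrps18b, between 2.24 and 7.71 FPKM (3.44-fold).

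None of the 75 tested members passed the test between genotypes. The test was limma on log2(FPKM + 1) over all 9538 tested genes, with an adjusted p under 0.05 called. It called 0 members (0.0734% of all tested genes were called), and their adjusted p ran from 0.5234 to 0.991. limma voom on reads recovered from the FPKM also called 0 members. At an unadjusted p under 0.05, 1 member was higher (4.09% of all tested genes) and 0 were lower (5.29% of all tested genes). With 3 libraries against 3, an exact permutation test of a single gene cannot give a two-sided p under 0.1. A p that misses the threshold does not show that levels were alike.

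The differences were small and leaned slightly upward. In p21TKO the mean was higher for 50 of 75 members (66.7%) and lower for 25, against 50.2% of all tested genes higher. When mitochondrially encoded genes were left out of the total of recovered reads, the mean was higher for 42 of 75 (56.0%). Of all tested genes, 44.8% were higher in that fit. The median log2 difference was 0.07, against 0.002 for all tested genes, and it ran from -0.38 (Mrpl14) to 0.67 (Mrpl20). It was 0.022 with mitochondrially encoded genes left out of the total and -0.039 without p21TKO replicate 1, when 34 of 75 were higher. Without DKO replicate 2, p21TKO replicate 2 or DKO replicate 1 it was 0.17, 0.20 and 0.015, and without DKO replicate 3 it was 0.039. With DKO replicate 2 and p21TKO replicate 1 both left out, an alternative chosen after the values were seen, it was 0.077, with 46 of 75 higher. The background differed by exon length. From the shortest to the longest class, 68.4%, 57.9%, 66.7% and 73.7% of members were higher in the main fit. All tested genes had 60.4%, 57.9%, 55.6% and 40.8%. The class medians were 0.089, 0.058, 0.078 and 0.073 for members and 0.122, 0.078, 0.043 and -0.058 for all tested genes. The part of exon length in the lean was not tested.

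**Figure D4:**
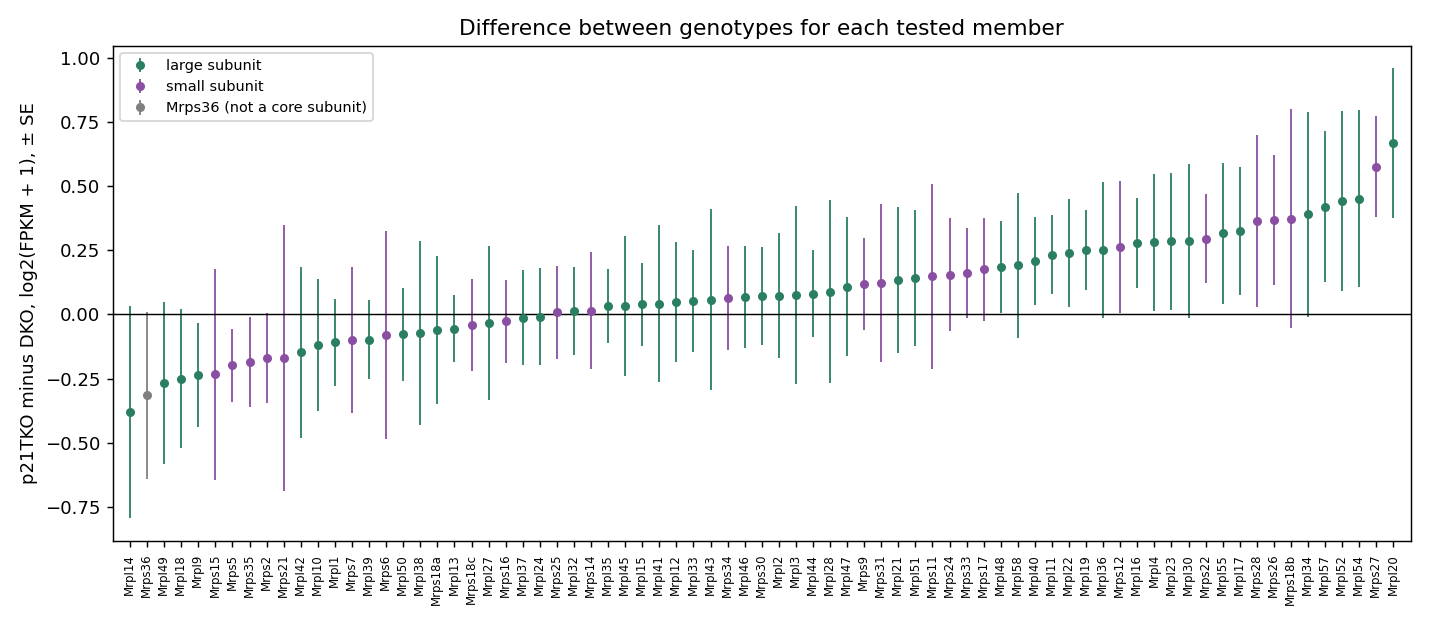
Difference between p21TKO and DKO on the log2(FPKM + 1) scale for each of the 75 tested members, with its standard error, ordered from Mrpl14 (-0.38) to Mrpl20 (0.67) and coloured by subunit. None of them passed the test.

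The genotypes held different numbers of libraries with Y-linked transcripts, so the comparison was also made within each kind. Among libraries without Y-linked transcripts (DKO replicate 1 against p21TKO replicates 2 and 3) the median difference was 0.15, with 50 of 75 members higher. Among those with them (DKO replicates 2 and 3 against p21TKO replicate 1) it was 0.22, with 63 of 75 higher. All tested genes had medians of 0.019 and -0.002, with 4936 and 4743 of 9538 higher. Each comparison has a single library on one side. In the second it is p21TKO replicate 1, the highest of all 6 libraries for 36 of the 75 members. With a term for Y-linked transcripts, limma gave a median of 0.18, 60 of 75 members higher (51.1% of all tested genes) and 0 called. A limma interaction term between genotype and Y-linked transcripts had an unadjusted p under 0.05 for 0 members (7.38% of all tested genes).

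Mrps27, which encodes a pentatricopeptide repeat protein of the small subunit (ENSMUSG00000041632, chromosome 13, 99344786 to 99415562), had the smallest p. It stood at 9.60, 10.24 and 10.08 FPKM in DKO replicates 1 to 3 and at 14.29, 13.11 and 19.30 FPKM in p21TKO replicates 1 to 3. All p21TKO libraries lay above all DKO libraries, and p21TKO replicate 3 was the highest. The means were 9.975 ± 0.33 and 15.6 ± 3.29 FPKM (SD, n = 3 each), a log2 difference of 0.58 (SE 0.20, unadjusted p = 0.0231, limma adjusted p = 0.5234). Over the alternatives the difference was 0.42 to 0.68 and the limma adjusted p 0.1471 to 0.935. Without p21TKO replicate 3, the highest library, the difference was 0.42. Of its exon bases, 24.2% also belong to other genes.

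Mrpl20, whose product binds rRNA early in the assembly of the large subunit (ENSMUSG00000029066, chromosome 4, 155802878 to 155809975), had the largest difference upward. It stood at 17.13, 35.05 and 22.55 FPKM in DKO and at 41.40, 35.13 and 39.37 FPKM in p21TKO. The groups did not overlap, although DKO replicate 2 and p21TKO replicate 2 were separated only in the second decimal. The log2 difference was 0.67 (SE 0.29, unadjusted p = 0.0564, limma adjusted p = 0.525), and it was 0.44 without DKO replicate 1.

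The groups did not overlap for 5 members that were higher, a share near the 6.93% of all tested genes, and for 2 that were lower, against 8.49%. Beside Mrps27 and Mrpl20, the higher ones were Mrpl16, Mrpl11 and Mrpl19, all proteins of the large subunit with bacterial homologues. Mrpl16, near the site where tRNAs bind, stood at 9.02, 11.09 and 10.46 FPKM in DKO and at 11.20, 12.66 and 13.90 FPKM in p21TKO (log2 difference 0.28, limma adjusted p = 0.60). Mrpl11, at the base of the stalk, stood at 7.26, 8.56 and 7.54 FPKM in DKO and at 10.03, 8.77 and 9.17 FPKM in p21TKO (0.23, limma adjusted p = 0.6136). In both the gap between the groups was narrow: the lowest p21TKO library lay 0.11 to 0.21 FPKM above the highest DKO library. Mrpl19 stood at 1.46, 1.41 and 1.57 FPKM in DKO and at 1.93, 1.57 and 2.41 FPKM in p21TKO (0.25, limma adjusted p = 0.5966), where DKO replicate 3 and p21TKO replicate 2 differed by less than the decimals printed, with 36.0% of its exon bases shared with other genes. Mrps22, a protein of the small subunit that bacteria lack, stood at 3.34, 3.14 and 4.01 FPKM in DKO and at 3.61, 5.28 and 4.76 FPKM in p21TKO, where replicate 1 lay among the DKO libraries (0.30, limma adjusted p = 0.5832).

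**Figure D5:**
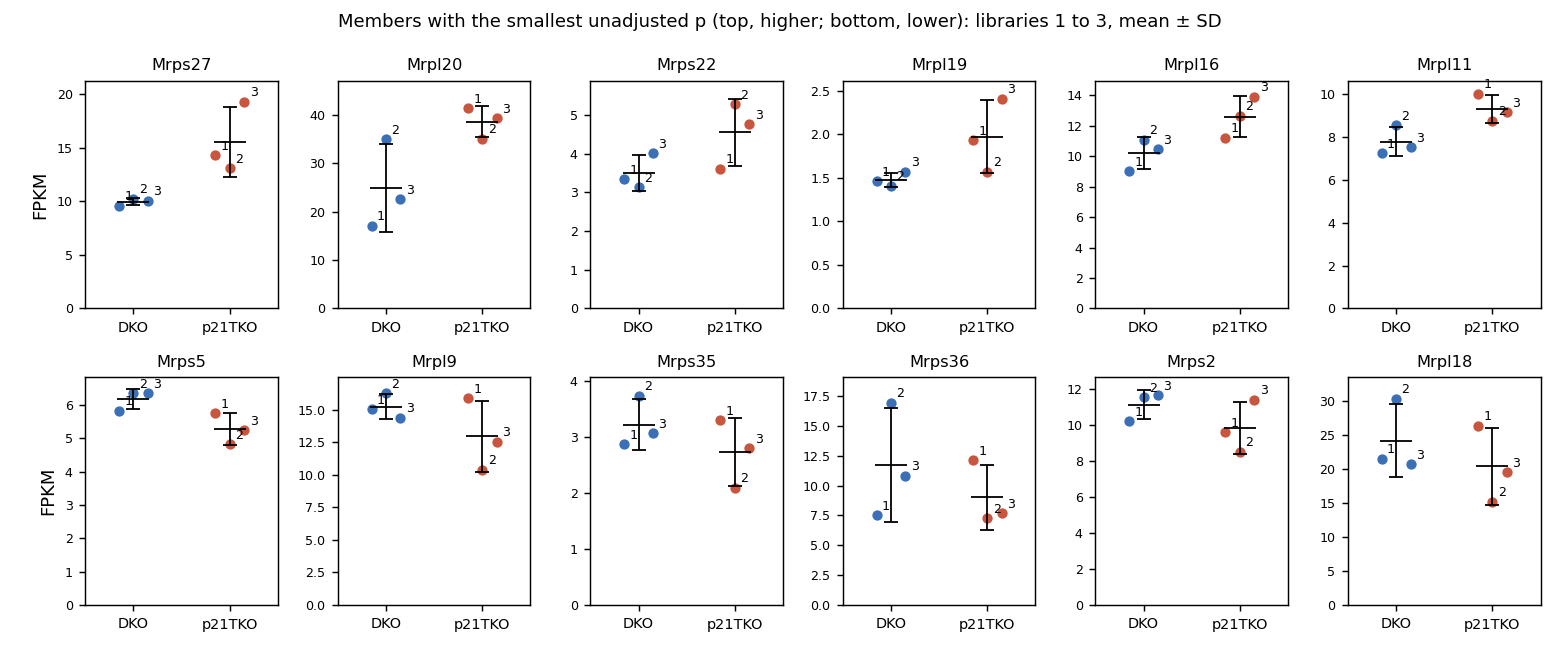
FPKM in each library (numbered 1 to 3) for the 6 higher (top) and 6 lower (bottom) members with the smallest unadjusted p, with group means ± SD, DKO in blue and p21TKO in red. For Mrps27 the DKO libraries lie between 9.60 and 10.24 FPKM and the p21TKO libraries between 13.11 and 19.30 FPKM, while for Mrps36 and Mrpl18 the groups overlap widely.

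Among members with lower means, Mrps5 had the smallest p. Mrps5, of the small subunit where mRNA enters the ribosome, stood at 5.83, 6.36 and 6.36 FPKM in DKO and at 5.76, 4.82 and 5.24 FPKM in p21TKO. The groups did not overlap, by a margin of 0.07 FPKM, and the log2 difference was -0.20 (SE 0.14, limma adjusted p = 0.6374). Mrpl39, the other member with lower p21TKO values throughout, stood between 11.25 and 12.31 FPKM in DKO and between 10.49 and 11.03 FPKM in p21TKO (-0.10, limma adjusted p = 0.8308). Mrpl9 stood at 15.03, 16.27 and 14.38 FPKM in DKO and at 15.88, 10.40 and 12.56 FPKM in p21TKO. There, as in Mrps35 (2.87 to 3.73 FPKM in DKO and 2.09 to 3.29 FPKM in p21TKO), p21TKO replicate 2 was the lowest library. Mrps2 stood at 10.19, 11.51 and 11.62 FPKM in DKO and at 9.57, 8.49 and 11.37 FPKM in p21TKO. Mrpl18 stood at 20.73 to 30.39 FPKM in DKO and 15.21 to 26.41 FPKM in p21TKO, and Mrps36 at 7.51 to 16.96 and 7.25 to 12.12 FPKM. The limma adjusted p of these 5 genes lay between 0.6924 and 0.7531, and in each the groups overlapped.

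The subunits did not stand apart by their medians. The median log2 difference was 0.073 over 50 large-subunit members, 35 of them higher, and 0.092 over 24 small-subunit members, 15 of them higher. Members were also classed by whether the place of their product in the ribosome is filled in bacteria too. Those at shared places had a median of 0.063 (28 of 44 higher) and those at places of mitochondrial ribosomes alone 0.077 (22 of 30 higher). Within the small subunit they were further apart. The 14 members at shared places had a median of -0.034, with 6 higher, and the 10 at mitochondrial places had 0.23, with 9 higher (Mrps35 was the exception). Mrps18b, one of the 10, is related to a bacterial protein, and without it 8 of 9 were higher, with a median of 0.16. Mrps28 (log2 difference 0.365), also counted among the 10, may fill a place that bacteria share. Medians with Mrps28 moved were not computed. Libraries also differed between the 14 and the 10. DKO replicate 2 and p21TKO replicate 1 were the 2 highest for 78.6% of the former and 20% of the latter. Over the alternatives the median of the former ran from -0.13 to 0.15 and that of the latter from 0.10 to 0.37. With DKO replicate 2 left out they were 0.12 and 0.18, and with a term for Y-linked transcripts 0.15 and 0.20. The difference between these classes was not tested.

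Mrps18a, Mrps18b and Mrps18c are paralogs, related to a single bacterial protein of the small subunit, and each product takes a place of its own in the mitoribosome. Mrps18c, the copy at the bacterial position, stood at 9.44, 11.58 and 11.17 FPKM in DKO and at 11.33, 8.87 and 11.06 FPKM in p21TKO, and the groups overlapped (log2 difference -0.041, limma adjusted p = 0.9488). Mrps18a stood at 5.03, 6.71 and 5.87 FPKM in DKO and at 9.20, 4.13 and 4.39 FPKM in p21TKO. Mrps18b, of the small subunit, stood at 5.44, 2.74 and 7.97 FPKM in DKO and at 3.81, 7.28 and 10.77 FPKM in p21TKO. p21TKO replicate 1 was thus the highest library for Mrps18a and the second lowest for Mrps18b. Their log2 differences were -0.060 (limma adjusted p = 0.9526) and 0.37 (limma adjusted p = 0.7622). Of the exon bases of Mrps18b, 30.5% also belong to other genes.

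Of the 8 members on chromosome 17, which also carries Cdkn1a, 3 started within 15 Mb of it, and none of the 3 passed the test. Mrpl28, 2.97 Mb away, stood at 22.47, 42.67 and 26.77 FPKM in DKO and at 47.90, 26.04 and 24.88 FPKM in p21TKO (log2 difference 0.089, limma adjusted p = 0.9428). Mrps34, 4.20 Mb away, stood at 11.07, 10 and 11.71 FPKM in DKO and at 8.93, 12.58 and 13.30 FPKM in p21TKO (0.065, limma adjusted p = 0.923), with 77.8% of its exon bases shared with other genes. Mrps18b, described above, lies 6.82 Mb away. In all 3 the p21TKO values lay on both sides of DKO values.

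Other genes that serve mitochondrial gene expression were read from the same fit, from 6 lists with 98 genes, of which 79 were tested. None was called, against 0.0734% of all tested genes. At an unadjusted limma p under 0.05, 0 were higher and 1 was lower, against 4.09% and 5.29% of all tested genes. A higher mean was seen for 34 of 79 (43.0%, median log2 difference -0.042), against 50.2% of all tested genes. The groups did not overlap for 0 that were higher and 4 that were lower, against 6.93% and 8.49% of all tested genes. Of the 5 mitoribosome proteins with other symbols, 3 had a higher mean. Aurkaip1, of the small subunit, stood at 32.24, 50.92 and 33.79 FPKM in DKO and at 53.52, 34.17 and 37.66 FPKM in p21TKO, again highest in DKO replicate 2 and p21TKO replicate 1. Chchd1, also of the small subunit, repeated that order at 24.04, 32.88 and 27.23 FPKM and at 40.17, 26.02 and 25.04 FPKM. Ptcd3, a pentatricopeptide repeat protein of the small subunit, did not. It stood at 4.01, 3.49 and 4.81 FPKM in DKO and at 3.13, 2.94 and 3.20 FPKM in p21TKO, with no overlap (-0.31, limma adjusted p = 0.5409).

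The assembly factors, translation factors and synthetases held no gene that passed the test over all 6 libraries. Of 24 tested assembly factors, 12 had a higher mean (median -0.009), and their centred medians lay between -0.12 and 0.11 in all 6 libraries. Ddx28, a DEAD-box helicase of large-subunit assembly, stood at 4.03, 3.86 and 5.31 FPKM in DKO and at 2.74, 14.27 and 21.78 FPKM in p21TKO. Its p21TKO replicate 1 was the lowest of all libraries and the other 2 the highest. The log2 difference was 1.03 (limma adjusted p = 0.5966), and it passed without p21TKO replicate 1 (1.8, limma adjusted p = 0.0162). Without that library, 233 genes were called higher and 273 lower among 9579 tested, against 7 called with all 6 libraries. The call was thus not particular to Ddx28. Of 13 tested translation factors, 8 had a higher mean (median 0.054), with Oxa1l, the insertase of the inner membrane that receives newly made proteins, at 8.90 to 12.31 FPKM in DKO and 10.70 to 13.77 FPKM in p21TKO. Of 14 tested mitochondrial aminoacyl-tRNA synthetase genes and partners, 4 had a higher mean (median -0.14), and their centred medians ran from -0.205 in p21TKO replicate 2 to 0.184 in DKO replicate 3. Hars2, for histidine, stood at 4.58, 3.44 and 5.04 FPKM in DKO and at 3.08, 3.18 and 2.85 FPKM in p21TKO, without overlap (-0.40, unadjusted p = 0.0468, limma adjusted p = 0.5234).

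Factors of mitochondrial transcription and RNA, and nuclear regulators, had mostly lower means. Of 16 tested transcription and RNA factors, 5 had a higher mean (median -0.071), with Lrpprc, which stabilises mitochondrial mRNAs, at 11.98 to 15.62 FPKM in DKO and 10.09 to 12.71 FPKM in p21TKO. Of 7 tested regulators, 2 had a higher mean (median -0.10). Gabpa, the ETS factor whose motif is given above, stood at 8.66, 5.03 and 7.79 FPKM in DKO and at 5.20, 5.02 and 4.60 FPKM in p21TKO (-0.43, limma adjusted p = 0.5421). DKO replicate 2 lay among the p21TKO libraries. Ppargc1a, a coactivator of mitochondrial biogenesis, stood at 0.94 to 1.90 FPKM in DKO and at 1.0, 4.26 and 1.61 FPKM in p21TKO. The part of these regulators in the levels of the ribosomal protein genes was not tested.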

How the data were processed

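The authors deposited 1 table of FPKM, with a column for each library and a row for each gene. The submitters' processing notes name, as tools of the authors and without roles, DESeq2 1.20.0, featureCounts 1.5.0-p3, HISAT2 2.0.5, fastp and CASAVA 1.8. They give GRCh38 and hg38, both human, beside mouse gene identifiers, and which build was used is not settled. The strand setting and the handling of reads shared between genes are not given, so genes with shared exons or near-identical copies have uncertain values. Copies named Mrpl23-ps1, Mrpl48-ps and Mrps36-ps1 to -ps3 are in the table and concern Mrpl23, Mrpl48 and Mrps36. Samples were grouped by their titles.

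Coordinates, exon unions and shared exon bases come from GENCODE M21 (GRCm38), matched by identifier for 55480 genes (93 were not matched). FPKM times exon union gave whole reads, within 0.02, for 99.3% of values under 5000 reads in each library. Recovered reads summed to less than the FPKM denominator. They came to 20720449 of 24027504 in DKO replicate 1 and 22947647 of 27061290 in p21TKO replicate 3, but 21481294 of 21516838 in DKO replicate 2. The percent of reads from mitochondrially encoded genes, and the total without these genes, used recovered reads. Genes with a mean of at least 1 FPKM were tested on log2(FPKM + 1), a scale that understates changes of low genes. The test was limma 3.58.1 under R 4.3.3, two-sided and with a mean-variance trend, with Benjamini-Hochberg adjustment. Alternatives were a pseudocount of 0.1, no filter or a mean of at least 5 FPKM, other scalings, no trend, a replicate block, a term for Y-linked transcripts, leaving out libraries, and limma voom with TMM scaling on recovered reads. The interaction with Y-linked transcripts and the fit without DKO replicate 2 and p21TKO replicate 1 were chosen after seeing the data. The fits were tested on simulated data with larger changes than those of the members. That test does not show their power for small differences.

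Members, lists and tests were chosen with earlier results of these data known. Members given in detail are the 6 higher and 6 lower with the smallest unadjusted p, the 5 highest and 5 lowest levels, those within 15 Mb of Cdkn1a and the Mrps18 paralogs. Others were named after their values were seen. From each list outside the rule, up to 3 genes with the smallest p could be named.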

Additional observations from a re-analysis of the deposited data

How the results depend on the processing

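No member was called under any of the 15 alternatives fixed with the design and computed or the 1 added later, and the smallest adjusted p of any member was 0.1252 (Mrpl20, with DKO replicate 2 and p21TKO replicate 1 both left out). Members higher at an unadjusted p under 0.05 numbered 2 with no filter, with median-of-ratios scaling, without a trend, with voom, with the term for Y-linked transcripts and with both libraries left out, and 0 with the replicate block, against 1. Leaving out each library in turn gave 0 to 2 higher and 0 to 1 lower, a median difference of -0.039 to 0.198 over all members and -0.038 to 0.209 over the large subunit, below 0 only without p21TKO replicate 1. Genes outside the rule with an unadjusted p under 0.05 numbered 2 with no filter, 0 at a mean of at least 5 FPKM, 0 with median-of-ratios scaling, 3 with mitochondrially encoded genes left out of the total, 0 without a trend, 0 with the block, 0 with voom, 0 with the term for Y-linked transcripts, 4 with both libraries left out and 0 to 5 without single libraries (0 to 1 called, Ddx28). Over all genes, 3 higher and 4 lower calls became 5 higher at a pseudocount of 0.1, 0 and 1 with no filter, 2 lower at 5 FPKM, 0 and 1 with voom, 67 and 107 with both libraries left out, and 0 to 233 and 1 to 273 without single libraries, the highest without p21TKO replicate 1. The cause was not tested. The planned edgeR and DESeq2 fits on recovered reads were tried and left out, because count models were kept for tables that hold counts. Neither called a member, but DESeq2 called many more genes than limma over all genes.

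The labels do not say whether same-numbered libraries are paired. Deviations of same-numbered libraries correlated at -0.44, -0.49 and -0.07, and the fit with the replicate block called 0 genes higher and 0 lower. These values cannot settle pairing, because deviations within a group sum to 0 and the block leaves fewer degrees of freedom. Of the 26 members given in detail, 15 kept their direction in all alternatives that could be computed. With mitochondrially encoded genes left out of the total, Mrpl12 was at -0.004 and Mrps25 at -0.025. With the term for Y-linked transcripts, Mrps21 was at 0.20, Mrpl3 at -0.12, Mrps34 at -0.022, Mrps18a at 0.14 and Mrps18c at 0.029. Leaving out single libraries gave -0.039 to 0.17 for Mrpl12, -0.79 to 0.020 for Mrpl14, -0.21 to 0.35 for Mrpl28, -0.20 to 0.37 for Mrpl3, -0.074 to 0.20 for Mrpl33, -0.38 to 0.12 for Mrps18a, -0.12 to 0.061 for Mrps18c, -0.68 to 0.18 for Mrps21, -0.074 to 0.16 for Mrps25, -0.036 to 0.25 for Mrps30 and -0.036 to 0.23 for Mrps34.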
